A study of Mus musculus with 23 samples.

Results

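The step from HE2 cells to blood progenitors was measured in mouse cells that had not been treated with doxycycline (Dox). HE2 is the stage of the endothelial-haematopoietic transition (EHT) at which haemogenic endothelium (HE) has gained the CD41 surface marker. The 2 progenitor arrays and 3 HE2 arrays whose titles call them biological replicates without Dox were compared, 5 of the 23 arrays in the series, over all 15202 genes that were bright enough to test. An additional array of progenitors without Dox was left out of the comparison, because its title calls it a technical replicate while its source name calls it replicate 3. The study made embryonic stem (ES) cells, of strain C57BL/6 by the labels, with a human RUNX1-ETO fusion gene under a tetracycline-responsive promoter, and asked how the fusion acts at successive stages of blood development. Every group used here carries this transgene, and the HE2 and progenitor cells described first are the uninduced groups. Flk1+ cells were sorted from embryoid bodies and grown in blast culture, from which HE (KIT+ Tie2+ CD41-), HE2 (KIT+ Tie2+ CD41+) and progenitors (KIT+ Tie2- CD41+) were sorted. The stages coexist in 1 culture that does not develop in step, and the ES cell lines were picked clones. Nothing in the labels says whether arrays of a group came from separate cultures. P values rest on the spread between arrays within groups, pooled over the 8 groups fitted, among them induced and myeloid progenitor cells. That spread may be in part technical.

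Blood cells first arise in the embryo from endothelium. Haemogenic endothelial cells switch on RUNX1, take up blood surface markers while they still hold vascular junctions and receptors, and then round up, detach and lose the vascular programme as they become progenitors. The transcription factors of the SoxF group (Sox7, Sox17 and Sox18) belong to the endothelial state, whereas PU.1 (Spi1), the C/EBP factors, Gata1 and Klf1 belong to the myeloid and erythroid programmes that follow.

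Of the spots on the arrays, 64.5 to 74.4% were well above background on the HE2 arrays and 67.5 to 71.0% on the progenitor arrays. The additional array had 54.7%, within the 48.8 to 78.4% of all 23 arrays. HE2 arrays 1 and 2 and progenitor array 1 were hybridised on slide 1, and HE2 array 3 and progenitor array 2 on slide 2, so that each of these slides holds both groups. The additional array lay on slide 3. Over genes, the correlation between HE2 arrays was 0.979 to 0.992 and that between the 2 progenitor arrays 0.987.

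The sort markers were checked first. Tek, which encodes Tie2, read 11.13, 9.58 and 11.31 on the HE2 arrays and 8.71 and 8.63 on the progenitor arrays, as log2 intensity. Both progenitor arrays lay below all HE2 arrays, in the direction of the sort, but HE2 array 2 was close to them, and the difference of -2.00 ± 0.80 (SE) had an adjusted P of 0.167. Kit, the stem cell factor receptor, read 12.65, 13.03 and 13.32 in HE2 and 13.37 and 14.06 in progenitors, and Itga2b, which encodes CD41, read 11.72, 11.19 and 12.51 in HE2 and 11.91 and 11.42 in progenitors. The ranges of Kit stood just apart and those of Itga2b overlapped, and neither gene was called. Runx1, the factor that drives the EHT, read 12.92, 13.28 and 12.91 in HE2 and 14.21 and 14.19 in progenitors, a difference of 1.16 ± 0.40 with an adjusted P of 0.088. Of the endothelial markers, Cdh5, Flt1, Emcn, Esam and Cldn5 fell and Kdr differed by -1.18 without being called, and of the progenitor markers, Ptprc and Spi1 rose. Pecam1 overlapped between the groups, at 10.35, 8.37 and 10.57 in HE2 and a mean of 9.80 (SD 0.28, n = 2) in progenitors, and the ES cell markers Pou5f1 and Zfp42 did not reach the level needed for testing.

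Vascular genes fell and leukocyte genes rose from HE2 to progenitors. Calls were made in a limma fit where the unadjusted P was no higher than 0.001 and the level changed by a factor of 2 or more. This gave 270 genes up (1.78% of those tested) and 550 down (3.62%), 820 in all (5.39%). The adjusted P value of the called genes was at most 0.0171. The median rise was 3.33-fold and the median fall 3.63-fold. Falls reached further, since 70 genes fell at least 8-fold whereas 5 genes rose that much. The median gene called down went from a log2 intensity of 9.78 to 7.43, and the median gene called up went from 7.55 to 9.35. Over all tested genes the median change was -0.02. In bulk samples a lower share of cells that express a gene and less RNA per cell cannot be told apart.

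**Figure D1:**
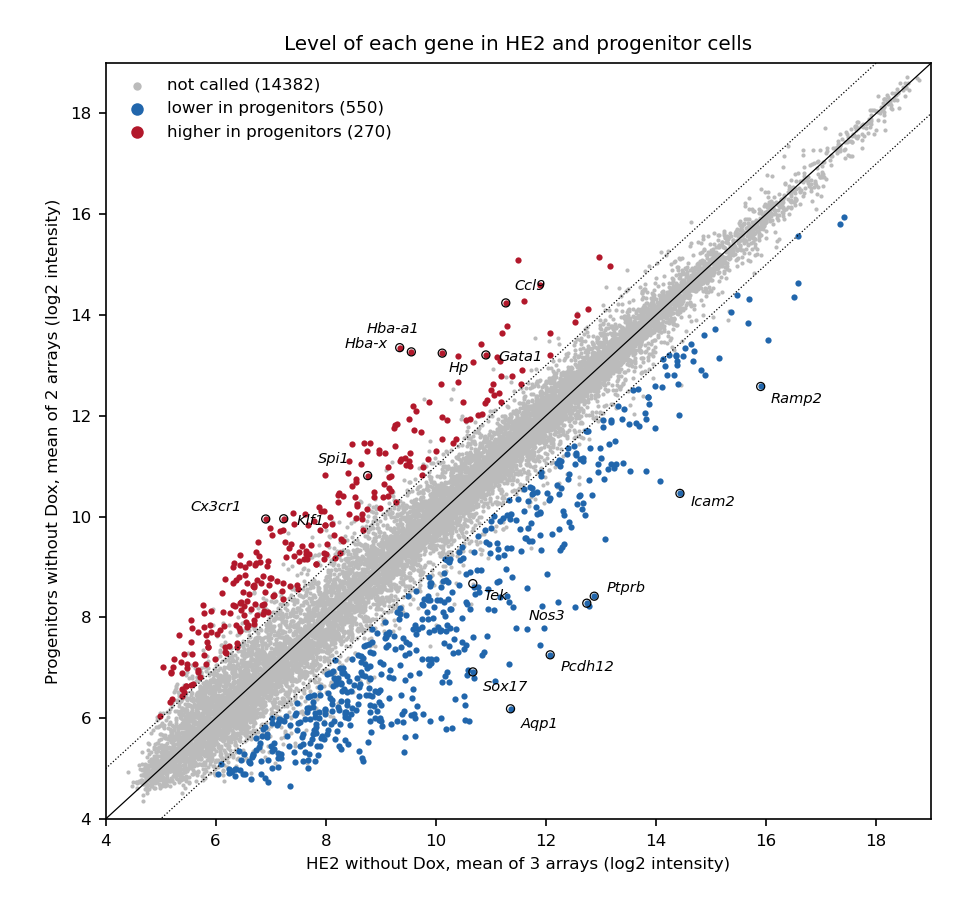
Mean log2 intensity of each of 15202 genes in HE2 cells (horizontal, 3 arrays) and progenitors (vertical, 2 arrays), both without Dox, with called genes in colour, no change as a solid line and 2-fold changes as dotted lines. The 550 genes called down spread further from the diagonal, to Aqp1 at -5.17, than the 270 called up, to Hba-a1 at 4.01, and Tek (grey) lies beyond the 2-fold line without being called.

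All called genes had progenitor arrays that did not overlap the HE2 arrays. Among all tested genes, the progenitor arrays lay above all HE2 arrays for 17% and below for 20.3%. On both slides taken alone, 232 of the 270 rises and 457 of the 550 falls were at least 2-fold. The sign on each slide follows from the lack of overlap, and the same arrays chose the genes. The additional progenitor array lay above the range of the HE2 arrays for 268 of the 270 genes and below it for all 550. For this array the share over all tested genes was not computed. The same HE2 arrays chose the genes, and its title calls the additional array a technical replicate, so this is no independent check. The counts rest in part on progenitor array 2: without it 196 genes were called up and 321 down.

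The 15 largest falls were led by genes of the vessel wall. Aqp1, a water channel of endothelium and red cells, read 10.94, 11.51 and 11.62 on the HE2 arrays and 5.96 and 6.42 on the progenitor arrays. The groups lay far apart, a 36.0-fold fall (log2 change -5.17 ± 0.57, adjusted P 9.23e-06). Pcdh12, a protocadherin of endothelial junctions, read 12.50, 12.07 and 11.66 in HE2 and 7.54 and 6.98 in progenitors and fell by 4.82. Nos3, the endothelial nitric oxide synthase, read 12.74, 13.10 and 12.38 in HE2 and 8.49 and 8.07 in progenitors and fell by 4.46. All HE2 arrays of both genes were several log2 units above the progenitor arrays. Ptprb, the receptor phosphatase VE-PTP that acts on Tie2 and VE-cadherin, read 12.83, 12.94 and 12.86 in HE2 and 8.49 and 8.35 in progenitors. It also fell by 4.46, and its arrays within each group were close together. The others were Pcdh17 (-4.66), the endothelial receptor Gpr182 (-4.57), Oit3 (-4.56), the neuropeptide gene Ucn (-4.49), Sox7 (-4.44), Hoxb2 (-4.40), the fibrillin gene Fbn1 (-4.34), Madcam1 (-4.34), the repressor Bcl6b (-4.28), the metalloprotease Adam19 (-4.25) and Dysf (-4.18), which encodes the membrane repair protein dysferlin. Madcam1 encodes a vascular ligand of the integrin α4β7, and Itgb7, which encodes the β7 chain, rose by 2.04.

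The 15 largest rises held 3 globin genes, an erythroid factor and several genes of myeloid cells. Hba-a1, an adult α-globin gene, read 9.21, 8.29 and 10.53 in HE2 and 13.46 and 13.25 in progenitors. HE2 array 3 was the highest of its group and still well below both progenitor arrays, and the rise was 16.1-fold (log2 change 4.01 ± 0.56, adjusted P 9.24e-05). The embryonic ζ-globin gene Hba-x rose by 3.71 and Hba-a2 by 3.60. Hba-a1 and Hba-a2 are near copies, and probes for 1 can read transcripts of the other. Hp, which encodes the haemoglobin-binding protein haptoglobin, read 10.45, 10.08 and 9.82 in HE2 and 13.84 and 12.64 in progenitors and rose by 3.13. The fractalkine receptor gene Cx3cr1 read 6.48, 6.43 and 7.82 in HE2 and 9.58 and 10.32 in progenitors and rose by 3.04. In both genes the lower progenitor array was above the highest HE2 array. The remaining genes were Ncf1 (2.98), the chemokine gene Ccl9 (2.97), the inhibitory receptor gene Pirb (2.82), Igsf6 (2.80), the survival gene Bcl2a1d (2.80), Cd52 (2.78), the lipopolysaccharide co-receptor gene Cd14 (2.78), Coro2a (2.76), Lilra6 (2.73) and Klf1 (2.72). Pirb and Lilra6, and Bcl2a1d, belong to families of near copies whose transcripts a probe may share.

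**Figure D2:**
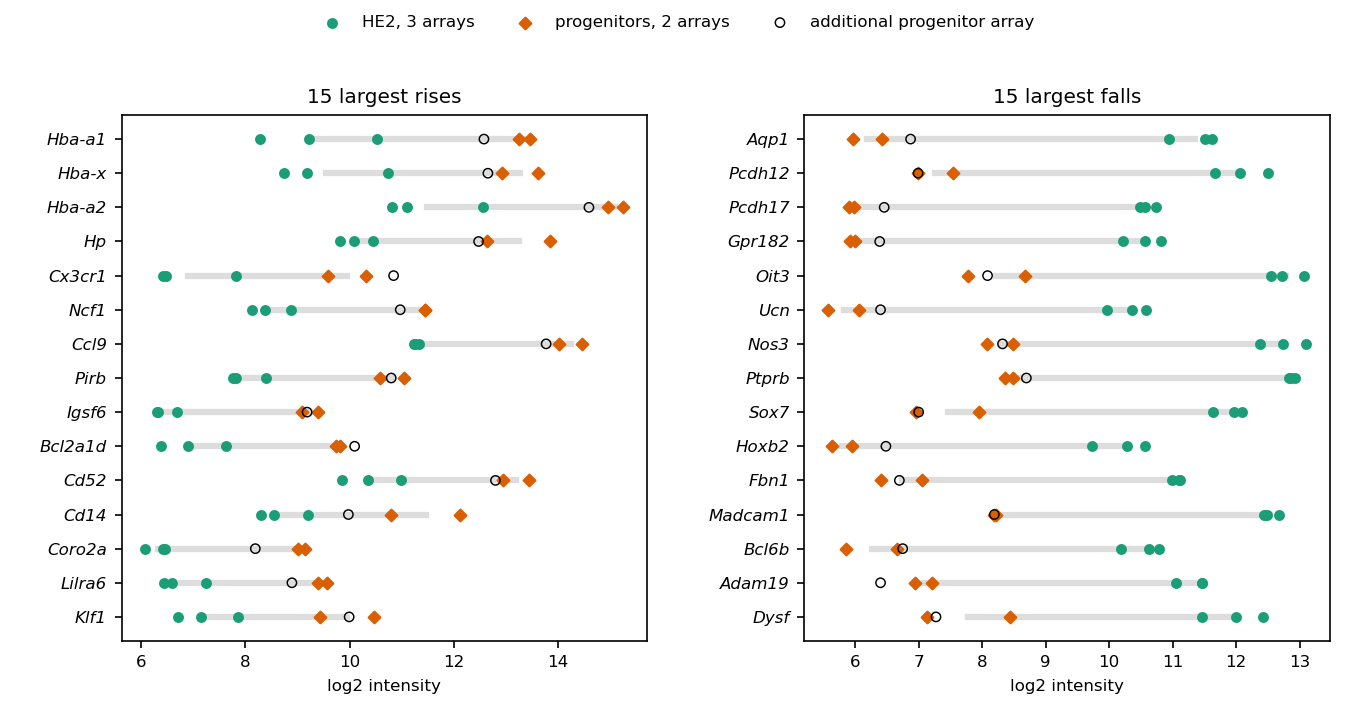
Log2 intensity on each array of the 15 genes with the largest rise (left) and the 15 with the largest fall (right), with HE2 arrays as circles, progenitor arrays as diamonds, the additional progenitor array as an open circle and a grey bar between the group means. The 30 genes were chosen among called genes whose HE2 and progenitor arrays do not overlap, so their lack of overlap follows from the choice. The additional array lies on the progenitor side.

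Genes of the endothelial surface and junctions fell as a group. Of 50 listed genes 49 were tested, and 30 fell, 0 rose and 19 were not called, with a median change of -1.53 beside -0.02 over all genes. Their mean log2 intensity was 11.37 to 11.68 on the HE2 arrays and 9.57 to 9.62 on the progenitor arrays. Icam2, an adhesion molecule of endothelium and platelets, read 14.71, 14.40 and 14.19 in HE2 and 10.44 and 10.48 in progenitors, a 15.7-fold fall. The HE2 arrays of Icam2 were all far above the progenitor arrays. Large falls were also measured for the tight junction gene Cldn5 (-3.96), the guidance receptor gene Robo4 (-3.69), Mmrn2 (-3.54), Cd93 (-3.37), the adrenomedullin co-receptor gene Ramp2 (-3.32), Emcn (-3.25) and Efnb2 (-3.09). Cdh5, which encodes VE-cadherin, fell less. It read 14.19, 14.21 and 13.93 in HE2 and 12.58 on both progenitor arrays, which lay below all HE2 arrays by a mean of 1.53. Egfl7, a secreted endothelial protein, fell from 17.55, 17.31 and 17.16 to 15.89 and 15.73. Both genes thus stayed bright in progenitors while their levels dropped. When progenitor array 2 was left out, 24 of the 49 genes were called down.

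The arterial ligand gene Efnb2 shows the promoter of a falling gene. It read 10.36, 10.36 and 10.47 in HE2 and 7.43 and 7.19 in progenitors, with no overlap. The sequence is the 250 bases before its RefSeq start in GRCm38.p6 (chr8:8661243-8661492, minus strand), 5′ to 3′, with the letters GGAATG, a core bound by TEAD factors, in capitals.
Efnb2: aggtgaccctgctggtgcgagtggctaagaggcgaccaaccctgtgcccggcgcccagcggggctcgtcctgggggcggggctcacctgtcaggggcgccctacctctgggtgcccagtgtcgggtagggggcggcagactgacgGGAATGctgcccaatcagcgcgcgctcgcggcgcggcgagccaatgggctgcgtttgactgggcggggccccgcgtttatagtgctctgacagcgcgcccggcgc
These letters, searched on both strands, lay in 13.7% of the 386 promoters of genes called down for which RefSeq gave a sequence, in 7.35% of the 204 of genes called up and in 10.8% of all 12066. The SOX core AACAAT lay in 6.74, 4.90 and 6.00% of the same sets. The median share of G and C was 61.4% in promoters of genes called down, 54.6% in those called up and 58.8% in all. A match describes letters and not a bound site. No promoter sequence was matched for 66 genes called up and 164 called down.

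Endothelial transcription factors fell in part. Of 28 tested, 11 fell, 0 rose and 17 were not called, with a median of -0.86. Sox17, a SoxF factor of arterial and haemogenic endothelium, read 10.67, 10.90 and 10.45 in HE2 and 6.89 and 6.94 in progenitors. The groups were cleanly apart, a 13.5-fold fall (log2 change -3.75 ± 0.34, adjusted P 1.39e-06). Sox7 read 11.97, 12.09 and 11.64 in HE2 and 7.95 and 6.96 in progenitors and fell by 4.44, and Sox18 fell by 2.18. All 3 SoxF genes were therefore lower in progenitors, Sox18 by the least. Foxc2, a forkhead factor of vessels and mesoderm, was not well above background on either progenitor array and was at least 6.22-fold lower there. Further falls were measured for Epas1 (-2.52), the venous factor gene Nr2f2 (-2.18), Foxc1 (-1.53), the ETS factor genes Ets1 (-1.32) and Elk3 (-1.14), and Klf4 (-1.13). A further Epas1 probe that was dimmer differed by 0.77 in the other direction. Fli1 and Erg, ETS factors of both endothelium and blood, differed by -0.56 and -0.79 and were not called. The list had 7 falls when progenitor array 2 was left out.

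Some genes of 3 signalling pathways of the vessel wall fell, fewest in the Notch pathway. There, 2 of 28 genes fell (7.14%, beside 3.62% over all genes) and 0 rose, with a median of -0.13. These are too few to read as a fall of the Notch pathway. They were Notch4, the endothelial Notch receptor (10.90, 10.76 and 10.48 in HE2 and 8.41 and 8.50 in progenitors), and Nrarp, a feedback inhibitor (9.01, 8.36 and 9.06 in HE2 and 7.14 and 6.92 in progenitors). Both were below the HE2 range on each progenitor array. Notch1 differed by -0.09, the ligand gene Dll4 by -1.15 and Jag1 by 1.17, none of them called. In the VEGF and angiopoietin pathway, 4 of 19 genes fell and 1 rose, with a median of -1.07. Vegfa, the main ligand, fell by 2.09, the receptor genes Nrp2 and Flt1 by 1.76 and 1.28, and Adamts1, which encodes a protease, by 1.32. Angpt1, the activating ligand of Tie2, went the other way, from 8.02, 8.46 and 9.13 to 10.16 and 10.63. Its lowest progenitor array was above its highest HE2 array, and the rise was 1.86 ± 0.42 (adjusted P 0.00836). Without progenitor array 2, 2 genes of this pathway list fell and 0 rose at the same limma threshold, so the Angpt1 call was lost. Of 39 genes of the TGF-β and BMP pathway, 8 fell and 0 rose, with a median of -0.52. The ligand genes Bmp6 (-3.43), Tgfb2 (-2.60) and Bmp2 (-2.30) were among them. The endothelial receptor gene Acvrl1 fell by 1.85 and the co-receptor gene Tgfbr3 by 1.42.

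Many matrix genes and a few cytoskeletal ones fell. Of 44 genes of the extracellular matrix and basement membrane, 18 fell and 0 rose, with a median of -1.36. Fbn1, which builds microfibrils, had a mean of 11.07 (SD 0.06, n = 3) in HE2 and read 7.05 and 6.41 in progenitors, a 20.3-fold fall. Its HE2 arrays were nearly equal and far above both progenitor arrays. Col1a1, a chain of fibrillar collagen, read 9.70, 10.48 and 8.64 in HE2 and 5.86 and 6.30 in progenitors and fell by 3.53. Its HE2 arrays were widely spread. The basement membrane genes Nid1, Lama1 and Nid2 fell by 2.50, 2.33 and 2.05, and the protease inhibitor gene Timp1 by 2.83. Fn1, which encodes fibronectin, read 16.58, 16.71 and 16.48 in HE2 and 14.82 and 14.43 in progenitors and fell by 1.96. Among 42 genes of actin, adhesion plaques and YAP targets, 6 fell and 0 rose, with Ccn2, a YAP target, at -2.87, Yap1 itself at -2.31 and Pdlim1 at -1.90. The TEAD partner gene Tead1 differed by -1.32 (adjusted P 0.0270) and was not called. The matrix list had 10 falls without progenitor array 2.

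Genes of mesenchymal, smooth muscle and cardiac cells fell in part. Of 26 tested, 9 fell and 0 rose, with a median of -1.12, and the mean level of the list was 8.70 to 9.44 on the HE2 arrays and 7.87 to 8.10 on the progenitor arrays. The cardiac factor gene Hand2 read 10.29, 11.08 and 10.70 in HE2 and 6.52 and 7.06 in progenitors and fell 14.9-fold. The cardiac actin gene Actc1 fell by 3.31, from 10.18, 11.35 and 8.94 to 6.78 and 6.91, with HE2 array 2 the highest and array 3 the lowest. The smooth muscle genes Acta2 and Tagln differed by -1.84 and -1.42 and were not called, and Myl7, an atrial myosin gene, was near background in both groups. In the list of factors of the epithelial-mesenchymal transition and their partners, 6 of 10 genes fell, namely Snai2 (-2.44), Twist2 (-1.98), Fn1 (-1.96), Cdh2 (-1.82), Snai1 (-1.43) and Vim (-1.01). The falls numbered 3 in the mesenchymal list and 2 in the transition list when progenitor array 2 was left out. The part of other cells that the HE2 gate may hold in the falls of the matrix, mesenchymal and transition lists was not tested.

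**Figure D3:**
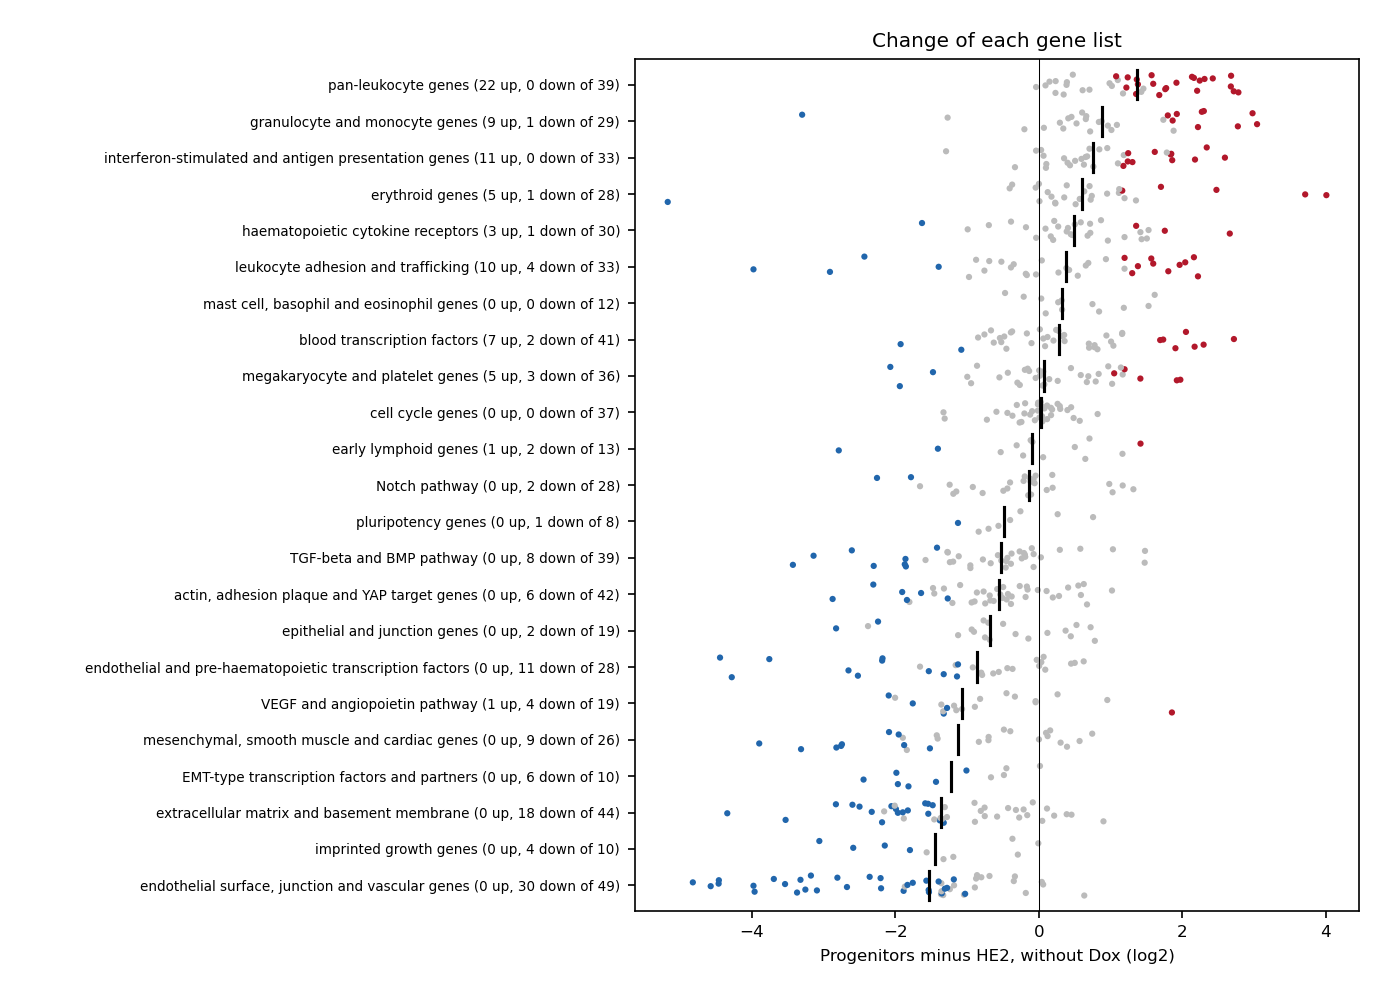
Log2 change from HE2 to progenitors without Dox of each tested gene in 23 lists, with genes called up in red, called down in blue, others in grey and the median of each list as a black bar. Pan-leukocyte genes have the highest median (1.37) and endothelial surface genes the lowest (-1.53), and the cell cycle genes lie around 0.

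Genes shared by most leukocytes rose. Of 39 tested, 22 rose, 0 fell and 17 were not called, with a median of 1.37, and their mean level was 9.67 to 10.11 on the HE2 arrays and 11.19 to 11.26 on the progenitor arrays. Ptprc, which encodes CD45, read 6.84, 6.59 and 6.96 in HE2 and 9.24 and 8.98 in progenitors. Its groups were far apart, a 4.96-fold rise (log2 change 2.31 ± 0.38, adjusted P 0.000542). Cd52 rose by 2.78 and the actin regulator gene Coro1a by 2.72. Tyrobp, the signalling adaptor DAP12, read 11.32, 11.44 and 12.04 in HE2 and 14.23 and 14.33 in progenitors and rose by 2.68. The GTPase gene Rac2, the WAVE complex gene Nckap1l and the adhesion regulator gene Cytip rose by 2.43, 2.24 and 2.21. The exchange factor gene Vav1 rose by 1.57 and Lcp1, which bundles actin, by 1.92. Without progenitor array 2 there were 14 rises.

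Genes of leukocyte adhesion and trafficking moved both ways, with 10 of 33 up and 4 down and a median of 0.39. The β2 integrin genes Itgb2, Itgal and Itgax rose by 1.60, 1.38 and 1.96. Selplg, the selectin ligand, rose by 2.16, the hyaluronan receptor gene Cd44 by 1.30 and the chemokine receptor genes Ccr2 and Cxcr2 by 2.22 and 1.81. The genes that fell were Icam2 (-3.98), Cxcl12 (-2.91), Vcam1 (-2.43) and Itga9 (-1.39). Icam2, Cxcl12 and Vcam1 act on the side of the vessel or stroma, whereas the β2 integrins and Selplg sit on leukocytes.

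Of 29 granulocyte and monocyte genes, 9 rose (31.0%, beside 1.78% over all genes) and 1 fell (3.45%, beside 3.62%), with a median of 0.88. Ncf1, a subunit of the phagocyte oxidase, read 8.39, 8.14 and 8.88 in HE2 and 11.45 and 11.44 in progenitors. The progenitor arrays were nearly equal and far above HE2, a 7.89-fold rise (adjusted P 1.71e-06). The oxidase gene Ncf4 rose by 2.27, the proteinase 3 gene Prtn3 by 2.30 and the myeloid gene Ms4a3 by 1.92. Mpo, the granule peroxidase, was already bright in HE2 at 12.82, 13.02 and 13.68 and read 14.79 and 15.15 in progenitors, a rise of 1.80. The neutrophil elastase gene Elane differed by 0.84 and was not called, nor was the macrophage receptor gene Csf1r, which differed by 0.96. The macrophage markers Adgre1 and C1qb differed by 0.72 and -0.20. Mrc1, a mannose receptor of macrophages and sinusoidal endothelium, fell from 8.58, 9.37 and 9.60 to 5.81 and 5.95. Of 12 genes of mast cells, basophils and eosinophils, 0 were called by limma. The genes S100a8, S100a9 and Ngp, which mark maturing neutrophils, did not reach the level needed for testing.

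The promoters of 4 genes that rose in the myeloid and leukocyte lists are shown for letters that factors of these cells are known to bind. The sequences of Prtn3 (chr10:79879417-79879666, plus strand), Mpo (chr11:87793534-87793783, plus strand) and Vav1 (chr17:57278850-57279099, plus strand) are the 250 bases before the RefSeq start in GRCm38.p6, 5′ to 3′, with GAGGAAGT, a core favoured by PU.1, in capitals.
Prtn3: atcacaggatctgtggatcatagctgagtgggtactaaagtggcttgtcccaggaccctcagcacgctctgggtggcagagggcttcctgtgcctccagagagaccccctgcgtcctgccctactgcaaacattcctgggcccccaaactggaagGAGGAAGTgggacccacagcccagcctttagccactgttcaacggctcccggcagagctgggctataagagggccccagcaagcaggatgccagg
Mpo: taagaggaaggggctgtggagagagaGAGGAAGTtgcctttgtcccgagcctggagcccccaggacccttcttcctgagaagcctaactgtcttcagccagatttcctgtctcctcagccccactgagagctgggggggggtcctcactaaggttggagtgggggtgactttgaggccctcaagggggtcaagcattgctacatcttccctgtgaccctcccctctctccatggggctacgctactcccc
Vav1: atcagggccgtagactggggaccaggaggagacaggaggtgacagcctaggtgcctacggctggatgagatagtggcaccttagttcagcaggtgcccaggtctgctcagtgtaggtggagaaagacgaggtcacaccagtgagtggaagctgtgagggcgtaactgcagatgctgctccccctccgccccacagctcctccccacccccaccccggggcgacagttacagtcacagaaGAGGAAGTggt
Ncf1 (chr5:134229626-134229875, minus strand) is shown for the core of interferon regulatory factors (IRF), GAAA followed by any 2 bases and again GAAA, in capitals.
Ncf1: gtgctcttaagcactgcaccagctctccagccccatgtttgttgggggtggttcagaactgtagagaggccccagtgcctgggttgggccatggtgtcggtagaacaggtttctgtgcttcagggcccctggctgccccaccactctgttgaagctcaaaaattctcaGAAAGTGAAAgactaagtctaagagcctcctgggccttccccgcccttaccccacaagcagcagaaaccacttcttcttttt
On either strand, GAGGAAGT lay in 15 of 204 promoters of genes called up (7.35%), in 1.55% of those called down and in 2.37% of all. Of these 15 genes, 4 shared most of their promoter with another of them. Gm14548 and Pirb were 96.0% identical over 249 bases compared without gaps, and Lilra6 and Pira2 96.0% over 248. The shorter ETS core GGAAGT, which GAGGAAGT contains, lay in 31.4% of promoters of genes called up, 14.0% of those called down and 22.3% of all. The IRF core lay in 7.84, 2.33 and 2.65%, the C/EBP core TTGCNNAA in 9.80, 8.03 and 7.83%, the AP-1 core TGANTCA in 9.80, 4.40 and 4.93% and the RUNX core TGTGGT in 16.2, 11.1 and 11.1%. The shares are descriptions, and 10 motifs were searched in all.

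Some erythroid and myeloid transcription factor genes rose. Of 41 tested, 7 rose (17.1%, beside 1.78% over all genes), 2 fell (4.88%, beside 3.62%) and 32 were not called, with a median of 0.28. Klf1, the erythroid Krüppel-like factor, read 6.71, 7.15 and 7.85 in HE2 and 9.44 and 10.48 in progenitors, a 6.59-fold rise. Gata1, which acts in erythroid, megakaryocytic and mast cells, read 10.38, 11.10 and 11.25 in HE2 and 13.02 and 13.40 in progenitors, a 4.92-fold rise. Spi1, which encodes PU.1, read 8.60, 8.81 and 8.88 in HE2 and 11.05 and 10.58 in progenitors, a 4.15-fold rise. None of the 3 overlapped between groups, so erythroid and myeloid regulators were higher in the same progenitor arrays. The granulocyte factor gene Cebpe rose by 2.17, Cebpa by 1.91, and the interferon regulatory factor genes Irf8 and Irf5 by 1.73 and 1.69. Gfi1, a repressor active during the EHT, read 11.03, 11.39 and 11.46 in HE2 and 9.71 and 9.03 in progenitors and fell by 1.92, and Bach2 fell by 1.08. The related repressor gene Gfi1b differed by 0.70 and Myb by 0.94, neither called. The early factor genes Tal1, Lyl1, Lmo2 and Gata2 differed by 0.07, 0.04, 0.50 and -0.36, none called. Without progenitor array 2, 5 of the list rose and 0 fell at the same limma threshold.

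Erythroid genes rose at the α-globin locus. Of 28 tested, 5 rose (17.9%, beside 1.78% over all genes) and 1 fell (3.57%, beside 3.62%), with a median of 0.60. Besides Hba-a1 and Hba-x, the blood group gene Kel rose by 2.48 and Icam4 by 1.16. Kel read 5.58, 5.82 and 5.92 in HE2 and 8.39 and 8.12 in progenitors, with no overlap. The embryonic β-globin gene Hbb-bh1 was among the brightest readings in both groups, at 16.14, 16.58 and 16.50 in HE2 and 17.53 and 17.19 in progenitors, and differed by 0.95 without being called. Hbb-y differed by 1.12 (adjusted P 0.0608) and the erythropoietin receptor gene Epor by 1.20 (adjusted P 0.0203), neither called. The red cell anion exchanger gene Slc4a1 differed by -0.04. The member that fell was Aqp1.
The promoters of Hba-a1 (chr11:32283422-32283671, plus strand) and Klf1 (chr8:84901732-84901981, plus strand) are shown for GATAAG, the GATA factor core, in capitals, read as CTTATC where it lies on the opposite strand. Each is the 250 bases before the RefSeq start in GRCm38.p6, 5′ to 3′.
Hba-a1: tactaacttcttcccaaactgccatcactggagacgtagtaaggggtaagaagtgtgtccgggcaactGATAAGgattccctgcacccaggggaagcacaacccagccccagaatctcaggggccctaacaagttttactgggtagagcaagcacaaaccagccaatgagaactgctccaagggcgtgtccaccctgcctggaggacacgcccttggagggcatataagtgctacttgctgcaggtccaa
Klf1: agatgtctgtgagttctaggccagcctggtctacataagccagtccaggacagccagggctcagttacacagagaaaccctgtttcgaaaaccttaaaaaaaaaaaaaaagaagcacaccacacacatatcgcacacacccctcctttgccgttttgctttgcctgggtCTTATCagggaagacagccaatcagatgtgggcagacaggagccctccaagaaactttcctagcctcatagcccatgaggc
GATAAG lay on either strand in 10.8% of promoters of genes called up, in 5.44% of those called down and in 5.07% of all. The KLF core CCACACCC lay in 7.35, 1.55 and 3.46%, and 4 of the 15 genes called up that hold it are Gm14548, Pirb, Lilra6 and Pira2, the near copies named above. Its letters overlapped those of the RUNX core in 76 promoters of all genes. Over the 247 bases compared, the promoters of Hba-a1 and Hba-a2 were identical.

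Megakaryocyte genes were mixed. Of 36 tested, 5 rose (13.9%, beside 1.78% over all genes) and 3 fell (8.33%, beside 3.62%), with a median of 0.07. The platelet glycoprotein genes Gp5, Gp1bb and Gp9 rose by 1.97, 1.92 and 1.42 and the P-selectin gene Selp by 1.20. Further Gp1bb probes, which were dimmer, differed by 0.16 and 0.22, and its call was lost when probes were averaged. The Gp9 call was lost in 9 of the alternatives described below. The platelet receptor gene P2ry12, not well above background on any HE2 array, was at least 2.02-fold higher. Trpc6 (-2.07), Alox12 (-1.94) and Pdgfb (-1.47) fell. Pf4, which read 8.90, 9.92 and 10.47 in HE2 and 9.17 and 10.48 in progenitors, overlapped. Of 30 haematopoietic cytokine receptor genes, Il10ra (2.66), Il1r2 (1.76) and Il6ra (1.36) rose and Lifr (-1.63) fell. Csf3r differed by -0.04 and Csf2ra by 0.20. Of 13 early lymphoid genes, the lymphotoxin gene Ltb rose by 1.42 and the factor genes Ebf1 and Gata3 fell by 2.79 and 1.41. These were 7.69 and 15.4% of a short list. Without progenitor array 2 there were 3 rises and 2 falls in the megakaryocyte list, 3 and 0 among the cytokine receptors and 1 of each among the lymphoid genes.

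Some interferon-stimulated genes rose. Of 33 genes of this response and of antigen presentation, 11 rose and 0 fell, with a median of 0.76. Ifitm6 read 6.01, 6.25 and 6.27 in HE2 and 9.01 and 8.53 in progenitors and rose by 2.59. Usp18, a negative regulator of interferon signalling, read 8.57, 8.99 and 9.37 in HE2 and 11.32 on both progenitor arrays and rose by 2.34. Both genes were clearly apart between the groups. Ifitm1 rose by 2.18, Ifit3 by 1.86, the oligoadenylate synthetase genes Oas2 and Oas1a by 1.85 and 1.84, the immunoproteasome gene Psmb9 by 1.62 and the RNA sensor gene Ifih1 by 1.31. The list also holds genes that myeloid cells express. Without progenitor array 2 there were 8 rises.

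Proliferation genes did not pass the test in either direction. Of 37 cell cycle genes, 0 were called by limma, with a median of 0.03 and mean levels of 13.31 to 13.37 in HE2 and 13.27 to 13.33 in progenitors. Mki67 read 15.09, 15.31 and 15.30 in HE2 and 15.36 and 15.34 in progenitors, just above the HE2 arrays by a mean of 0.12. Of 10 imprinted growth genes, 4 fell and 0 rose, with Peg3 at -3.06, Meg3 at -2.58, Mest at -2.15 and Igf2r at -1.79. The keratin gene Krt19 and the junction gene Tjp1 were the 2 of 19 epithelial and junction genes that fell, by 2.82 and 2.24. Among 8 pluripotency genes, Klf4 fell, and Nanog differed by 0.76 and was not called.

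The stage before, HE without Dox (3 arrays), gives the levels from which HE2 started. The change from HE to HE2 shares the HE2 arrays with the change from HE2 to progenitors, so the values are set side by side and no agreement was computed. Over all genes, 2.39% were called up and 2.67% down from HE to HE2. The changes of Sox17 were -1.67 from HE to HE2 and -3.75 from HE2 to progenitors, and those of Nos3 were -2.30 and -4.46. Those of Icam2 were -1.55 and -3.98. For these vascular genes the later step was the longer, as read on the log2 scale. Spi1 rose by 3.29 and then by 2.05, Gata1 by 2.84 and then by 2.30, Tyrobp by 4.79 and then by 2.68 and Mpo by 3.34 and then by 1.80. For these the earlier step was the longer. Klf1 rose by 1.40 and then by 2.72, Ncf1 by 2.41 and then by 2.98 and Cx3cr1 by 1.32 and then by 3.04. Blood genes thus went both ways. The named genes were chosen largely on the later step, so these examples do not compare vascular with blood genes. Genes called at the later step and not at the earlier included Hba-a1 (1.64 and 4.01), Hba-x (1.06 and 3.71), Kel (0.42 and 2.48), Ptprc (0.75 and 2.31) and Gfi1 (0.34 and -1.92). Hba-a2, whose transcripts the Hba-a1 probe can also read, was called up at both steps, by 2.10 (adjusted P 0.00195) and then by 3.60. Runx1 rose by 2.28 from HE to HE2. A difference between the steps was not tested.

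**Figure D4:**
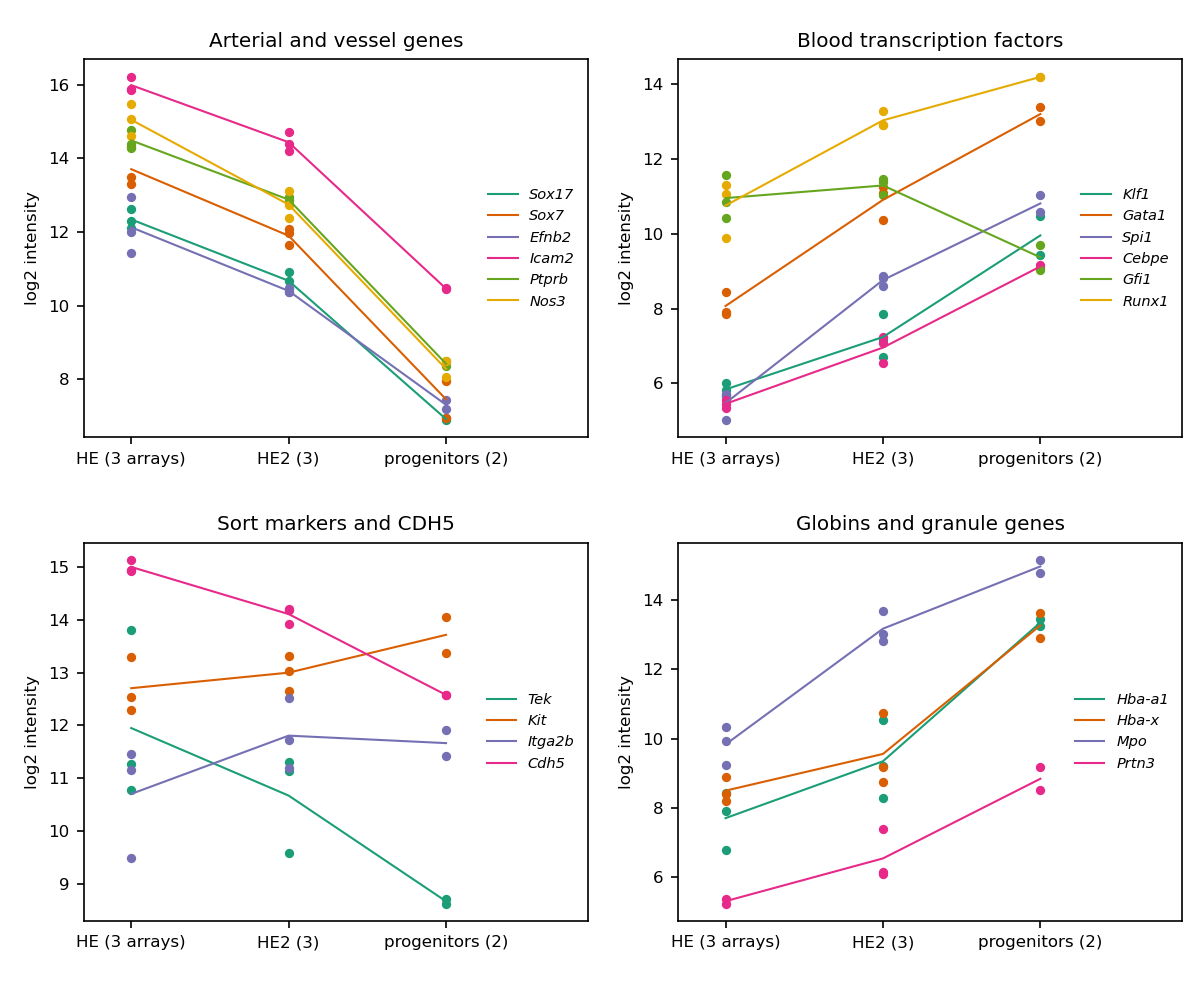
Log2 intensity in HE, HE2 and progenitor cells without Dox, with each array as a point and group means joined by lines, for vascular genes, blood transcription factors, sort markers with Cdh5, and globin and granule genes. The vascular genes drop at both steps, Gfi1 is high in HE and HE2 and drops in progenitors, and Tek is widely spread in HE and HE2.

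The same step was also measured in cells with Dox, which express RUNX1-ETO, on 3 HE2 and 2 progenitor arrays. By the paper, Dox was added early in blast culture, the EHT was perturbed and very few Tie2-negative progenitors formed. It adds that some cells had already advanced in differentiation when Dox was given. The induced progenitors are thus the few cells that reached this gate. With Dox, 2.02% of all genes were called up and 5.34% down. Of the 270 genes called up without Dox, 259 had a positive change with Dox and 157 were called up, and of the 550 called down, 540 had a negative change and 368 were called down. The median change with Dox was 1.39 for the first set and -1.56 for the second, beside 1.73 and -1.86 without Dox. These sets were chosen on the change without Dox. The arrays with Dox are not part of that difference. They did share in the normalization, the choice of probes and the estimate of spread behind the calls, so the choice was not independent of them.

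The difference between the changes was tested as an interaction term. It was called for 98 of all genes (0.645%), of which 7 were among the genes called up and 23 among those called down. In 22 of the 23 the fall was smaller with Dox. Hpgd, a prostaglandin-degrading enzyme, read 7.42, 7.32 and 7.55 in HE2 and 10.16 and 9.54 in progenitors without Dox. With Dox it read 10.96, 10.19 and 10.44 in HE2 and 9.60 and 8.10 in progenitors. The gene thus rose without Dox and started high with Dox, and the changes differed by 4.10 ± 0.47 (adjusted P 0.00129). Ptprb read 12.83, 12.94 and 12.86 and then 8.49 and 8.35 without Dox, and its change with Dox was -0.85, a difference of -3.61 (adjusted P 0.00150). The changes of Sox7 were -4.44 without and -1.46 with Dox (adjusted P of the difference 0.0143). Ptprb and Sox7 fell without Dox, and of these Sox7 was also called down with Dox. The adjusted P of the difference was at most 0.05 for 3 of the 7 genes and for 3 of the 23. The genes were picked on the change without Dox, which enters the term. Progenitor array 2 with Dox lay on slide 3, apart from the other 9 arrays of this test, and with slide as a block 64 terms were called, of which 39 were shared.

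**Figure D5:**
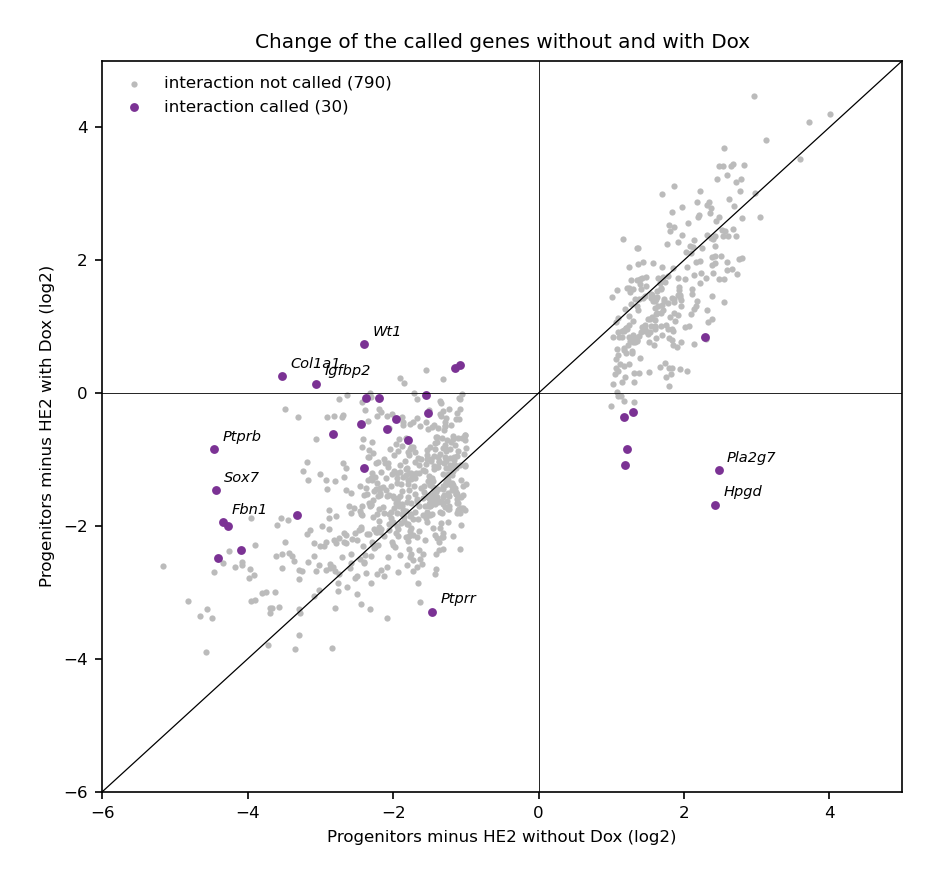
Log2 change from HE2 to progenitors without Dox (horizontal) and with Dox (vertical) of the 820 genes called without Dox, with the 30 whose interaction term was called in purple and equal changes as a solid line. Most genes keep their sign, whereas Hpgd and Pla2g7 rise without Dox and have negative changes with Dox, and Ptprb and Col1a1 lie well above the line.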

How the data were processed

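RNA of sorted cells was labelled with Cy3 and hybridised to Agilent SurePrint G3 Mouse arrays in 1 colour. The authors deposited the median intensity of each spot and of its local background as Feature Extraction (10.7.1.1 by the submitters' processing notes, another version by the file headers) read them from the scan, with quality flags and no normalization between arrays. The authors also deposited log2 values that they had background corrected and quantile normalized, which served as an alternative. The background was corrected with normexp (offset 16) on all spots, 3671 control spots and all outlier spots were dropped, the 23 arrays were quantile normalized and spots of a probe averaged. Of 55681 probes, 26582 matched 20145 genes by their RefSeq accession (table of GRCm38.p6), used for names only since the array was designed on another build. Each gene took its brightest probe, and 15202 genes that reached 6.5 on the log2 scale on 1 array or more were kept. A spot that outlier flags removed leaves a gene without that array (29 genes). No columns of other samples were present.

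A mean for each of 8 groups was fitted to 22 arrays with limma 3.58.1 in R 4.3.3 (14 residual degrees of freedom), without the additional progenitor array. The calling threshold was P 0.001 together with a 2-fold change, with Benjamini-Hochberg adjusted P values given beside them. Where no array of a group was well above background, the lowest signal that was well above background stands for it and the fold is a lower bound. In simulated data, 200 of 15202 genes were changed by 1.5 on the log2 scale. The comparison of HE2 with progenitors recovered 68.0% with 10 false calls, and the interaction term 44.5% with 21. The simulated noise was independent between arrays, without slide effects and with the same spread of a gene in all groups. These numbers are therefore not the error rate of the real calls. Precision is limited by how few arrays each group has, since arrays give no counts. The texts name Tek, Kit, Itga2b and Runx1, and the 15 largest rises and falls among called genes whose groups did not overlap. They also name up to 8 called members of each list in each direction and members that did not pass where an account needs them. Up to 8 interaction terms in each direction are named as well. Some members that this rule names are not reported here. Members and lists were chosen with earlier results of these data known. Promoters are the 250 bases before the first start listed by RefSeq in GRCm38.p6. Same-numbered arrays of the groups deviated together with correlations of 0.381 and 0.199 over genes. With only 2 shared numbers these do not establish pairing.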

Additional observations from a re-analysis of the deposited data

Results flagged for a closer look

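For 16 genes called from HE2 to progenitors without Dox, the change differed from that in cells with Dox by the interaction term of the limma fit (change without Dox minus change with Dox, log2). The term was positive for Hpgd (4.10), Pla2g7 (3.64), Rbm47 (2.26), St3gal6 (2.06), Ptprr (1.83), Nr3c1 (1.58), Ndrg1 (1.54) and Pglyrp1 (1.44). Of these, Pla2g7, an enzyme that inactivates platelet-activating factor, read 6.58, 6.67 and 6.35 in HE2 and 9.74 and 8.28 in progenitors without Dox, and 10.07, 10.19 and 11.33 in HE2 and 9.29 and 9.44 in progenitors with Dox. The groups did not overlap in either condition, and they lay in opposite order. Pglyrp1 was the member of this set with a change of the same sign in both conditions, 2.29 without and 0.85 with Dox, apart from Ptprr, which fell in both and further with Dox (-1.46 and -3.29). Ptprr was not well above background on either progenitor array without Dox and was at least 2.75-fold lower there.

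The term was negative for Col1a1 (-3.79), Ptprb (-3.61), Igfbp2 (-3.20), Wt1 (-3.14), Sox7 (-2.98), Fbn1 (-2.39), Wnt4 (-2.30) and Bcl6b (-2.27). Igfbp2, which binds insulin-like growth factors, read 11.95, 11.98 and 11.02 in HE2 and 8.02 and 9.16 in progenitors without Dox, and 8.69, 8.99 and 8.81 in HE2 and 9.60 and 8.35 in progenitors with Dox. Its HE2 arrays without Dox stood above all other arrays of the comparison. Wt1 read 9.07, 9.05 and 8.39 and then 7.18 and 5.69 without Dox, and its change with Dox was 0.73. Array 2 of HE2 with Dox has no value for Wt1 and St3gal6, because the spot was an outlier. The adjusted P of the term was 0.00129 for Hpgd, 0.00150 for Ptprb, 0.00713 for St3gal6, 0.0143 for Sox7 and 0.0148 for Rbm47, and 0.0501 to 0.142 for the other 11. Progenitor array 2 with Dox lay on slide 3, and the part of the slide in these terms was not tested gene by gene.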

How the results depend on the processing

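The counts of 270 genes up, 550 down and 98 interaction terms were recomputed under each alternative. An adjusted P of 0.001 in place of the threshold gave 129, 255 and 0 (98 terms had an unadjusted P of at most 0.001 in limma), and a 2-fold change alone gave 558, 841 and 1203. An adjusted P of 0.05 gave 22 terms. A fit of only the groups compared gave 365 down and 46 terms, normalization over HE, HE2 and progenitor arrays alone 62 terms and slide as a block 64 terms. Leaving out 1 array at a time gave 196 to 251 up, 321 to 611 down and 55 to 310 terms. The lowest down count and the 55 terms came without progenitor array 2 without Dox, the 310 terms without progenitor array 1 with Dox, and 62 terms remained in number without HE2 array 1. The lone array of a group is then assumed to vary like the others. Other alternatives, among them the deposited log2 values (246 up, 491 down), kept all 3 counts within 1.5 times. Scaling to the 75th percentile moved the median interaction over all genes to 0.10. With the replicate number as a block, 4 arrays gave 208 up and 394 down (200 and 405 for the same arrays without it), and all groups gave 277 up, 566 down and 94 terms. Chosen after seeing the data, the additional array in place of progenitor array 2 gave 250 up and 569 down, and in place of array 1, 246 and 679. Added to both, it gave 285 and 673.

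Of 157 named genes called, none changed direction under any alternative, and 86 were called under every planned one. Among the calls lost most often, in 10 to 13 alternatives, were those of Icam4, Twist2, Selp, Vim, P2ry12, Rbm47, Sparcl1, Tbx20, Bach2 and Snai1. The calls rest on progenitor array 1 as well as on array 2. Without array 1 those of Spi1, Hp, Ccl9 and Cd14 were among the calls lost. With 2 progenitor arrays, changes close to 2-fold were at the limit of what could be called.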

Other observations

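Gene families outside the lists were also counted, and their members are named here after their values were seen. Over all genes, 1.78% were called up and 3.62% down. Of 22 tested Hox genes, which pattern the body axis, 8 fell and 0 rose, with a median of -0.89. The falls numbered 5 without progenitor array 2. Hoxb2 read 10.29, 10.56 and 9.73 in HE2 and 5.95 and 5.63 in progenitors, Hoxb4 read 11.46, 11.56 and 10.97 in HE2 and 8.44 and 8.19 in progenitors. Both were lower on every progenitor array. Hoxb5 fell by 4.10 (HE2 array 2 had no value), Hoxb6 by 1.82, Hoxb7 by 1.41 and Hoxd10 by 1.31, and Hoxb8 was at least 3.81-fold lower in progenitors, where it was not well above background. Of the 8 genes, 6 lie in the Hoxb cluster. Of 36 cadherins and protocadherins, 12 fell and 0 rose, 4 of them in the protocadherin beta cluster, whose members are near copies (Pcdhb6, Pcdhb20, Pcdhb21 and Pcdhb22). Of 17 ephrin and Eph receptor genes 5 fell, with Efna1 at -3.72 and Epha2 at -2.79 beside Efnb2 and Ephb4.

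Of 31 tested chemokines and chemokine receptors, 8 rose, 3 fell and 20 were not called. Ccl9, Ccl6, Ccl3, Ccl5 and Ccl4, which leukocytes among others make, rose by 2.97, 2.60, 2.54, 2.11 and 1.62. Cxcl12, Ccl2 and Cxcl1, made by stromal and endothelial cells among others, fell by 2.91, 3.01 and 2.44. Of 30 Arhgap genes, which encode GTPase activating proteins, Arhgap9, Arhgap4 and Arhgap30 rose by 2.38, 1.85 and 1.68 and Arhgap31 fell by 1.85. Among 251 solute carriers, 7 rose and 9 fell, shares close to those over all genes (1.78 and 3.62%), with the glucose transporter family member Slc2a6 at 2.52, the amino acid transporter gene Slc38a5 at 2.38 and Slc26a10 at -4.08. Slc26a10 read 9.90, 10.07 and 10.32 in HE2 and 5.97 and 6.05 in progenitors, far apart. Of 309 zinc finger genes, 6 fell (1.94%) and 0 rose, shares below those over all genes. Of 75 ribosomal protein genes, 0 were called by limma, with a median of -0.02. Without progenitor array 2, 3 solute carriers rose and 6 fell, and 3 zinc finger genes fell.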
